A study of Mus musculus with 7 samples.

Results

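The mitochondrial ribosomal protein genes were the 78 protein-coding genes, of 55364 genes counted, whose symbol begins with Mrpl or Mrps and a number. Their symbols alone chose them, 49 named Mrpl and 29 named Mrps. RNA was measured in CD4 T cells of lung tumours grown orthotopically, that is in the lung itself, in C57BL/6 mice over 8 weeks old. The cells were sorted by their CD45, CD3 and CD4. Every mouse carried the floxed I-Ab allele (I-AbF/F), which encodes a chain of MHC class II, and had been given tamoxifen. Control mice (I-AbF/F) had no Cre and gave 5 libraries. Cre mice (I-AbF/FCol1a2-cre) gave 2 libraries and carried Cre under the promoter of Col1a2, a collagen gene of fibroblasts, so the deletion was aimed at fibroblasts of the tumour and not at the sorted cells. The comparison asked whether CD4 T cells differ when fibroblasts cannot present antigen on MHC class II.

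Mitochondria keep their own ribosome, which makes a small set of respiratory chain and ATP synthase subunits encoded by mitochondrial DNA. Its RNA comes from that DNA, while all of its proteins are encoded in the nucleus, made in the cytosol and imported. The small subunit reads the messenger RNA and the large subunit joins amino acids. Some proteins descend from those of bacterial ribosomes and others are found only in mitochondria. In T cells, mitochondrial mass and translation rise after activation and support cytokine production and division.

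By known structure, 26 members belong to the small subunit and 51 to the large subunit. The large subunit includes Mrps30 and Mrps18a despite their names. The remaining member, Mrps36, is now regarded as an adaptor of the oxoglutarate dehydrogenase complex. Of the ribosomal members, 46 have a bacterial homologue and 31 are specific to mitochondria. The 78 genes lie on 17 chromosomes.

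Transcripts were counted at their 3′ ends, and library totals ran from 1484655 to 1724346 in Control, with 1929899 and 1449739 in the Cre libraries. Levels are given as CPM, counts scaled to the library total. All 10 T cell markers were found, summing to 3325 to 4477 CPM (Control) against 4531 and 2720 (Cre). Markers of CD8 T, NK and B cells summed to 1.23 to 105 CPM (Control) against 67.9 and 73.1 (Cre), with 3 of 9 at 0 in every library. Those of macrophages and neutrophils came to 12.9 to 47.4 CPM in Control, and both Cre libraries lay below that range at 1.55 and 4.83 CPM (3 of 11 at 0 throughout). Epithelial and tumour cell markers summed to at most 25.4 CPM (3 of 6 at 0 throughout). The 10 markers of fibroblasts together reached 303 to 918 CPM (Control) against 2094 and 87.6 (Cre), with 1 at 0 throughout. Fn1 had 3, 167, 2, 16 and 147 Control counts against 3374 and 39 Cre counts. It alone gave 1748 of the 2094 CPM in Cre replicate 1. There Dcn, at 189 CPM, also exceeded its Control maximum of 158 CPM. Col1a1 (43.5 and 4.14 CPM), Col1a2 (3.63 and 1.38) and Bgn (0.518 and 2.76) went the other way in Cre. Their Control minima were 61.1, 23.2 and 6.76 CPM. The part of other cells in the results below was not tested. The series describes the mice as matched for gender, yet Xist, the RNA that coats the inactive X, had 340, 16, 76, 266 and 476 Control counts against 1 and 86 Cre counts. Ddx3y, a gene of the Y chromosome, had 1, 34, 141, 2 and 0 Control counts against 76 and 89 Cre counts. Their part in the results was not tested. In such bulk samples, fewer cells of a type and less RNA per cell cannot be told apart.

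Fewer members were detected in the Cre libraries than in any Control library. At least 1 count was found for 78, 62, 67, 64 and 68 members in the Control libraries, in replicate order, against 53 and 54 in the Cre libraries. After thinning to the smallest total, 1449739 counts, the expected number of members was 61.9 to 78 in Control, and 52.7 and 54 in Cre. All genes followed the same order of groups at that total, with 9983 to 14603 detected in Control against 8759 and 7896 in Cre. Control replicate 1 stood highest on both scales.

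**Figure D1:**
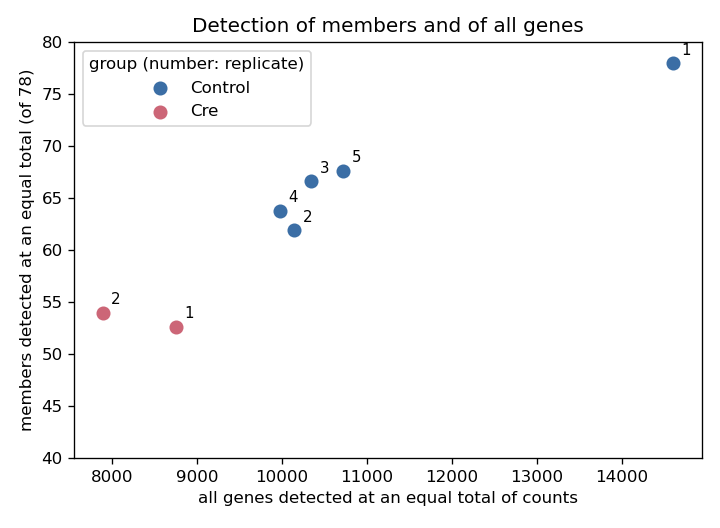
Members detected (vertical axis, number of 78) against all genes detected (horizontal axis, number of genes), both at an equal total of 1449739 counts; each point is 1 library, numbered by replicate. The 2 Cre libraries lie lowest on both axes, at 52.7 and 54 members, and Control replicate 1 lies highest, at 78 members.

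Of the 78 members, 37 had counts in all 7 libraries and none was at 0 throughout Control. In the Cre libraries, 43 had counts in both, 10 in replicate 1 only, 11 in replicate 2 only and 14 in neither. Pairs of Control libraries shared between 0 and 5 members without counts. Control replicate 1 had counts for all 78, so every pair that includes it is at 0. No share over all genes is given for the 14 or for these pairs. The 14 comprised 5 of 26 small subunit members (19.2%) and 9 of 51 large subunit members (17.6%), and 9 of 46 with a bacterial homologue (19.6%) against 5 of 31 specific to mitochondria (16.1%). Among members with counts in all 5 Control libraries, 2 of 44 (4.55%) had no count in Cre, beside 5.7% of all genes with counts in all 5 Control libraries. These were Mrpl35 and Mrpl50. Among tested genes, described below, 9 of 72 members (12.5%) were at 0 in both Cre libraries, beside 13.7% of all. Both shares of members were near those of genes in general.

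**Figure D2:**
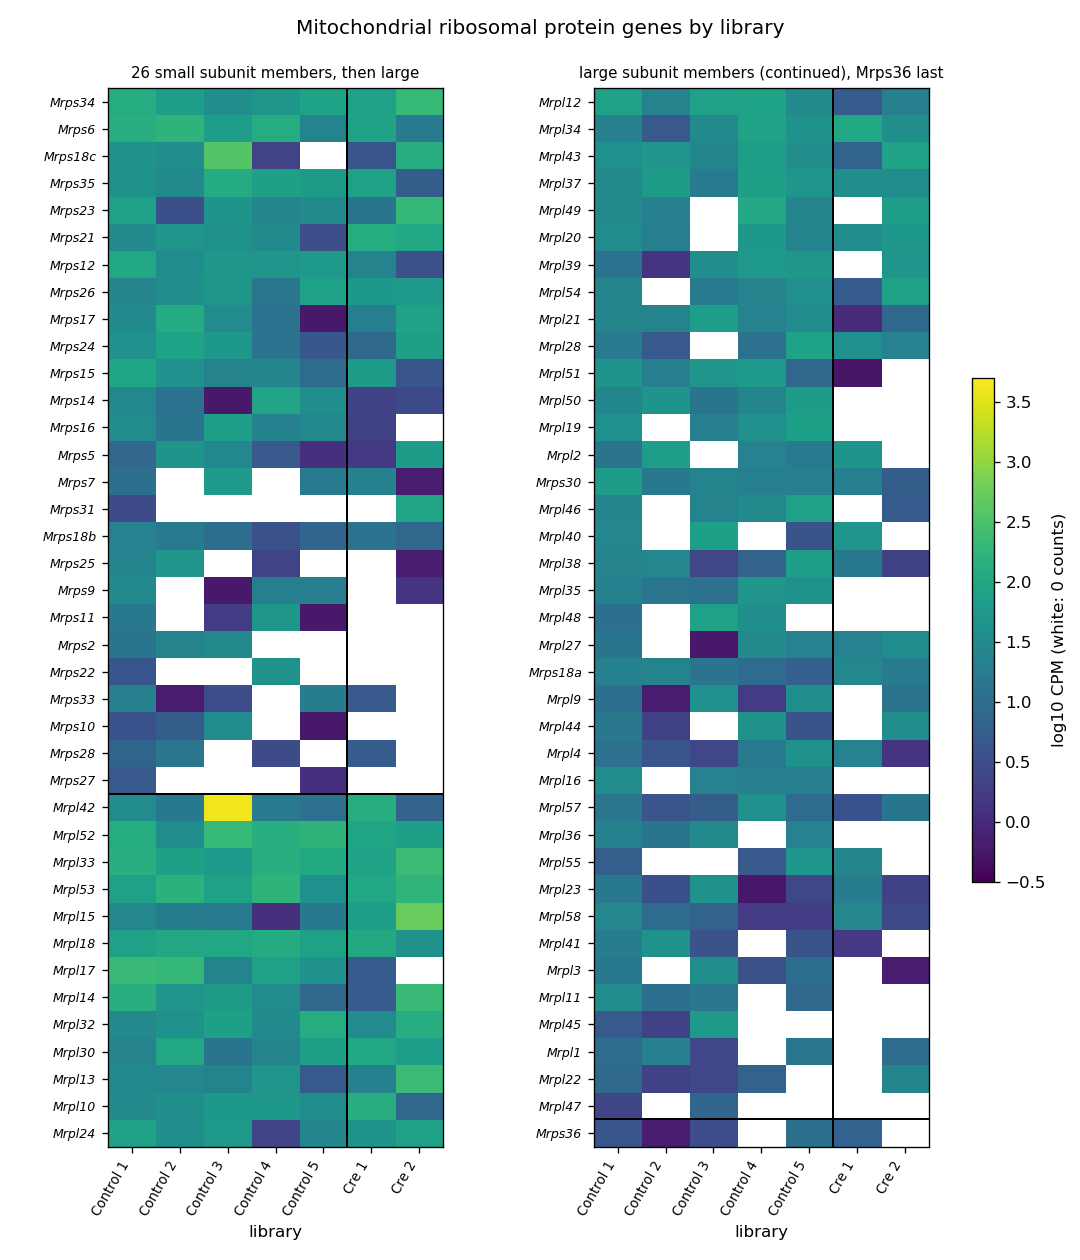
Level of each of the 78 members (rows) in each library (columns, in 2 panels), as log10 CPM by colour; white cells had 0 counts, the vertical line parts Control from Cre, and horizontal lines part small subunit, large subunit and Mrps36. White cells number 25 and 24 in the Cre libraries and 0 to 16 in Control.

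The summed level of the members did not separate the groups. They held 2939, 2316, 6813, 2600 and 2336 CPM over the Control libraries, against 2059 and 3489 for Cre. Cre replicate 1 lay below every Control library, and Cre replicate 2 above all but Control replicate 3, which stood alone. That library had 6510 counts of Mrpl42, a large subunit protein specific to mitochondria, which made up 58.8% of its member counts. Without Mrpl42, members summed to 2585 ± 275 CPM for Control (SD, n = 5) and 2706 ± 1097 CPM for Cre (n = 2), a log2 ratio of means of 0.07. Without Mrpl15 as well, which had 771 counts in Cre replicate 2, the ratio was −0.09. With Mrpl42 that ratio was −0.29, and without Control replicate 3 it was 0.12.

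Neither subunit separated the groups by its sum. Small subunit members summed to 987, 861, 1157, 673 and 498 CPM over the Control libraries, against 607 and 1050 for Cre. Large subunit members other than Mrpl42 summed to 1746 ± 203 CPM in Control but to 1317 and 2432 in the Cre libraries, which lay on either side of the whole Control range. Members with a bacterial homologue summed to 1601 ± 226 CPM in the Control group and 1776 ± 692 CPM with Cre, a log2 ratio of 0.15 that turned to −0.10 without Mrpl15. Those specific to mitochondria, without Mrpl42, summed to 980 ± 151 and 927 ± 410 CPM.

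**Figure D3:**
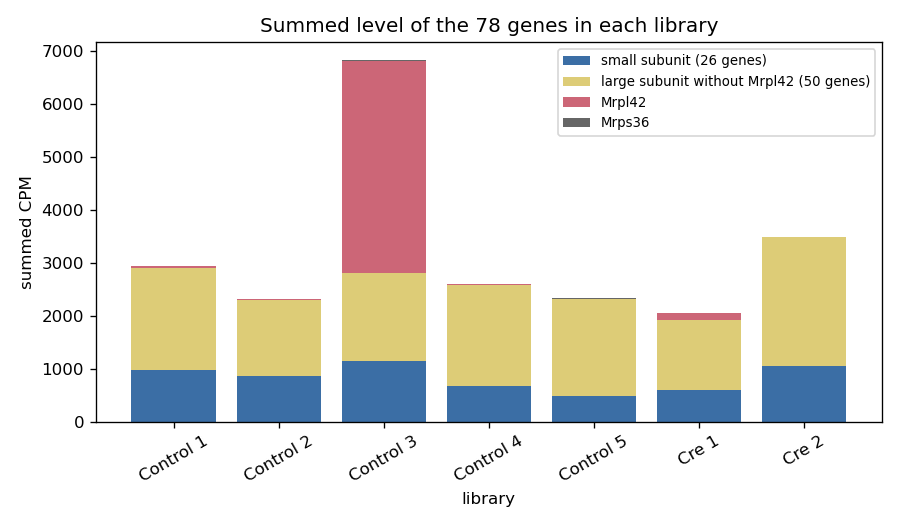
Summed CPM of the members (vertical axis) in each library, stacked by subunit, with Mrpl42 and Mrps36 shown apart. Mrpl42 accounts for the height of Control replicate 3 (6813 CPM in all), and Cre replicates 1 and 2 reach 2059 and 3489 CPM.

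No member passed the threshold in the fit of Cre against Control. The quasi-likelihood test of edgeR, adjusted by Benjamini-Hochberg over all 9854 genes with enough counts, called 0 members higher (0.0% of all tested genes) and 0 lower (0.0101%), and the lowest adjusted p among members was 0.235. The 72 members that passed the filter on low counts had a median log2 fold change of −0.35, beside −0.39 over all tested genes. Placing genes at 0 in both Cre libraries at their limit left these medians at −0.35 and −0.39. It could not have moved them, since such genes lie below the median either way. Fitted values were lower in Cre for 44 of the 72 (61.1%), beside 60.1% of all tested genes, and higher for 28, beside 39.9%. Of the small subunit, 7 tested members had higher and 15 lower fitted values (median −0.59), and of the large subunit 21 and 28 (median −0.30). At an unadjusted p under 0.05, 1 member was higher (1.39%, beside 1.41% of all tested genes) and 10 were lower (13.9%, beside 10.2%). The whole Cre group lay above the Control range for 2 members (2.78%, beside 4.05%) and below it for 8 (11.1%, beside 10.9%).

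DESeq2 on the same genes gave 7 members as lower out of 66 with an adjusted p (10.6%, beside 7.23% of all such genes) and 1 as higher (1.52%, beside 0.417%), while limma voom called none in either direction (0.0304% higher and 0.0% lower over all tested genes). At an unadjusted p under 0.05, DESeq2 had 2 of 72 members higher (beside 2.2% of tested genes) and 17 of 72 lower (beside 15.5%). With voom, 2 of 72 were higher (beside 3.57%) and 8 of 72 lower (beside 7.95%). In both, the share of members that were lower exceeded that of all tested genes, a difference that was not tested. In the authors' deposited table, 8 of 78 members were lower at an FDR under 0.05 (10.3%), beside 6.66% of the 9854 genes tested here and 3.64% of all 18008 genes with an FDR, many of low counts. In the authors' deposited table, 1 member was higher, beside 0.211% of the 18008. The 6 members that did not pass the filter on low counts were Mrpl45, Mrpl47, Mrps10, Mrps22, Mrps27 and Mrps31. Of these, 5 were at 0 in both Cre libraries, and Mrps31 had 5 counts in Control replicate 1, 128 in Cre replicate 2 and 0 in the other libraries.

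**Figure D4:**
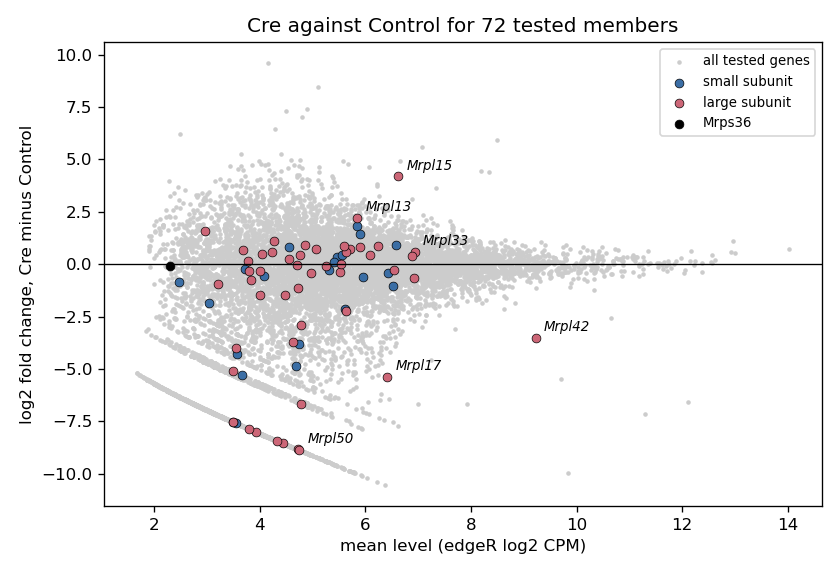
Log2 fold change of Cre minus Control (vertical axis) against mean level (horizontal axis, edgeR log2 CPM) for the 72 tested members, coloured by subunit, over all 9854 tested genes in grey; the lower arc of points holds genes with 0 counts in both Cre libraries. Mrpl15 is the highest member at 4.20, and Mrpl50 the lowest at −8.87.

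Mrpl15, a large subunit protein with a bacterial homologue, had the smallest p of all members. It had 47, 27, 27, 2 and 26 Control counts against 132 and 771 Cre counts, in replicate order as in all such lists. Both Cre libraries were above every Control library, and replicate 2 was far above replicate 1. Its level was 16.0 ± 9.57 CPM for Control (SD, n = 5) and 300 ± 328 CPM for Cre (n = 2). The log2 fold change was 4.20 ± 0.95 (SE, edgeR adjusted p = 0.235). DESeq2 called it higher (adjusted p = 0.00158), as did the authors' deposited table (FDR = 0.00745). Without Cre replicate 2 the edgeR value was 2.13 (adjusted p = 0.567), and without Cre replicate 1 it was 5.06 (adjusted p = 0.0174).

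The gene spans bases 4773206 to 4785739 of chromosome 1 (mm10, minus strand), and its counts came from several regions. The region at its 3′ end (4772957 to 4776463), mostly 3′ UTR, had 46, 27, 27, 0 and 20 Control counts against 77 and 263 Cre counts. A coding exon at 4777525 to 4777648 had 1, 0, 0, 1 and 1 Control counts against 55 and 258 Cre counts. Another at 4782568 to 4782679 had 250 counts in Cre replicate 2 and at most 1 elsewhere. The upstream exons were thus counted almost wholly in Cre, while the 3′ end was counted in both groups. With the 3′ region alone, the log2 fold change was 2.83 (adjusted p = 0.427). Whether the same reads were counted in more than 1 region was not tested.

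**Figure D5:**
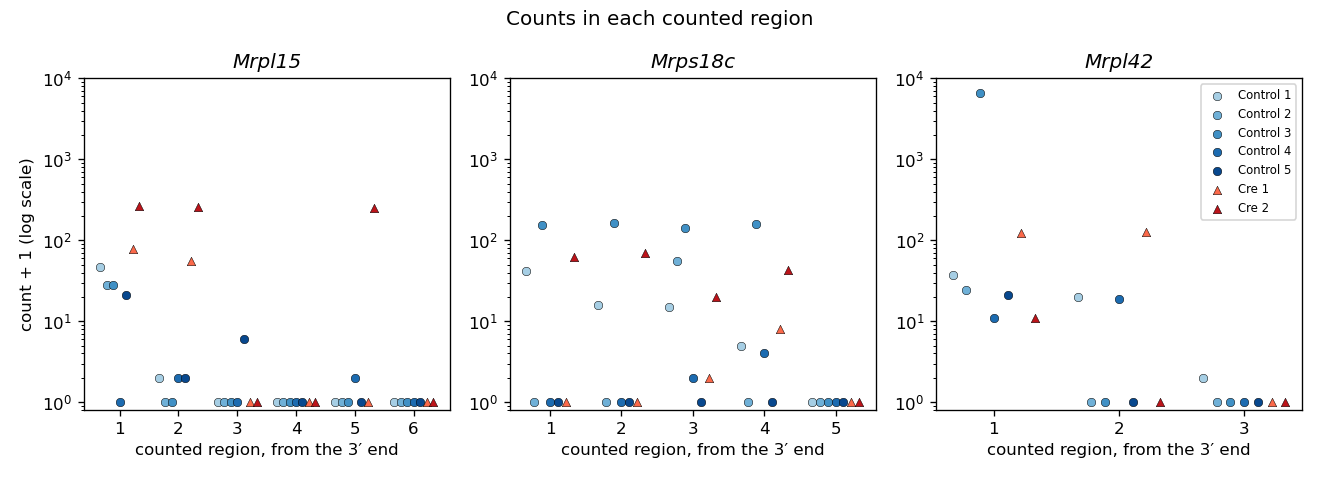
Count plus 1 (vertical axis, log scale) in each counted region of Mrpl15, Mrps18c and Mrpl42, numbered from the 3′ end (horizontal axis); circles are Control libraries and triangles Cre libraries. Cre replicate 2 has 263, 258 and 250 counts in regions 1, 2 and 5 of Mrpl15, and the 6510 counts of Mrpl42 in Control replicate 3 all lie in region 1.

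The other members with the smallest p among those with higher fitted values were not separated from Control by the test. Mrps21, a small subunit protein with a bacterial homologue, had 52, 74, 71, 54 and 5 Control counts against 243 and 147 Cre counts. It was the only other member with both Cre libraries above every Control library (log2 fold change 1.84 ± 1.02, edgeR adjusted p = 0.444). Mrpl13 of the large subunit had 48, 41, 40, 86 and 8 Control counts against 42 and 340 Cre counts. Its higher fitted value (2.21 ± 1.08) rested on Cre replicate 2, and without that library it was −0.28. Mrps23, specific to mitochondria, was alike, with 135, 5, 78, 44 and 52 Control counts against 26 and 290 Cre counts (1.45 ± 1.19, and −1.46 without Cre replicate 2). Mrps34, a small subunit protein whose loss causes Leigh syndrome in humans, had 209, 101, 61, 92 and 142 Control counts against 155 and 293 Cre counts. Over all libraries, most of its counts lay in a stretch that a neighbouring gene also claims on that strand, and without such regions its log2 fold change turned from 0.91 to −1.22. Mrpl30 of the large subunit had 40, 153, 22, 45 and 123 Control counts against 191 and 98 Cre counts, and Mrpl34 had 36, 7, 53, 145 and 75 against 193 and 55. The groups overlapped for both in CPM.

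Among members with lower fitted values, Mrpl50, a large subunit protein specific to mitochondria, had the smallest p. It had 45, 70, 22, 44 and 109 counts in Control and none in Cre, so that no Cre library reached the Control range. Against the limit of 3 counts over both Cre libraries (0.888 CPM, counting error only), its Control mean of 36.0 ± 21.1 CPM was at least 40.5-fold higher. DESeq2 called it (adjusted p = 0.00147), and edgeR did not (adjusted p = 0.349). Its region at 49512347 to 49514189 on chromosome 4 is mostly 3′ UTR and overlaps no other gene on its strand.

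Mrpl17, with a bacterial homologue, had 369, 297, 40, 137 and 70 Control counts against 10 and 0 Cre counts. Control spanned a wide range, and both Cre libraries lay below it. Its log2 fold change was −5.37 ± 1.58 (edgeR adjusted p = 0.36, DESeq2 adjusted p = 0.000984). It passed edgeR without Cre replicate 1 (adjusted p = 0.0462). Mrpl35, with a bacterial homologue, had 38, 21, 20, 83 and 74 counts in Control and none in Cre (at least 32.1-fold lower). Mrpl51, specific to mitochondria, had 81, 29, 79, 97 and 13 Control counts against 1 and 0 Cre counts, in a region that overlaps another gene. DESeq2 called both (adjusted p = 0.0036 and 0.00804), and edgeR did not (adjusted p = 0.367 for each).

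Mrpl19, Mrpl16 and Mrpl36, all with bacterial homologues, had no counts in Cre and also none in 1 Control library each. Mrpl19 had 69, 0, 32, 71 and 119 counts in Control, Mrpl16 had 56, 0, 38, 34 and 33, and Mrpl36 had 38, 20, 48, 0 and 37. Against the limit, they were at least 39.4-fold, 21.8-fold and 19.9-fold lower in Cre. The groups met at 0 for each of these genes. Mrps16, the small subunit member of smallest p and a disease gene in humans, had 56, 20, 117, 38 and 47 Control counts against 4 and 0 Cre counts (log2 fold change −4.87 ± 2.07, edgeR adjusted p = 0.427, DESeq2 0.0224). Mrpl11 and Mrpl48, named after their values were seen, complete the 10 members that were lower at an unadjusted p under 0.05, and both were at 0 in Cre and in at least 1 Control library. The authors' deposited table had Mrpl50, Mrpl17, Mrpl35, Mrpl51, Mrpl19, Mrpl16, Mrpl36 and Mrps16 at an FDR between 0.000361 and 0.0459.

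Of the small subunit proteins around the decoding site and the messenger path, Mrps12, the homologue of the bacterial protein where streptomycin resistance arises, had 176, 51, 86, 83 and 96 Control counts against 46 and 5 Cre counts. Both Cre libraries lay below Control in CPM (log2 fold change −2.11 ± 1.27, edgeR adjusted p = 0.475). Mrps5 had 13, 71, 47, 8 and 2 Control counts against 3 and 92 Cre counts. Mrps7 had 19, 0, 96, 0 and 27 Control counts against 42 and 1 Cre counts. For both, the groups overlapped and 1 library held most counts of the group. Mrps28 had 12, 21, 0, 5 and 0 Control counts against 10 and 0 Cre counts, and Mrps22, specific to mitochondria, had 7, 0, 0, 78 and 0 in Control and none in Cre.

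The 3 Mrps18 paralogues differ in their place, with Mrps18c and Mrps18b in the small subunit and Mrps18a in the large. Mrps18a had 38, 36, 21, 16 and 10 Control counts against 55 and 25 Cre counts. Cre replicate 1 (28.5 CPM) lay above the Control range of 6.14 to 24.2 CPM, and Cre replicate 2 (17.2 CPM) within it. Mrps18b had 39, 24, 17, 6 and 12 Control counts against 24 and 12 Cre counts. Mrps18c was uneven, at 74, 55, 611, 4 and 0 Control counts against 8 and 191 Cre counts. In Control replicate 3 its 4 counted exons had 152, 161, 139 and 159 counts from the 3′ end, and in Cre replicate 2 they had 61, 69, 19 and 42. None of the 3 differed between the groups by edgeR (adjusted p = 0.932, 0.976 and 0.96 for Mrps18a, Mrps18b and Mrps18c).

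At the factor-binding stalk of the large subunit, Mrpl12, which also binds the mitochondrial RNA polymerase, had 137, 36, 132, 149 and 51 Control counts against 10 and 31 Cre counts. Both Cre libraries were below every Control library (log2 fold change −2.22 ± 1.27, edgeR adjusted p = 0.454). Mrpl3 had 27, 0, 63, 6 and 17 Control counts against 0 and 1 Cre counts. Mrpl44, which has a ribonuclease III fold, had 26, 3, 0, 78 and 6 Control counts against 0 and 56 Cre counts. Mrpl58, the peptidyl-tRNA hydrolase that frees stalled chains, had 46, 14, 11, 3 and 3 Control counts against 54 and 4 Cre counts. The groups overlapped for these last genes. Mrps30 had 108, 23, 40, 36 and 32 Control counts against 40 and 8 Cre counts, and Mrps36 had 7, 1, 5, 0 and 18 Control counts against 13 and 0 Cre counts.

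The members with the highest mean CPM over the 7 libraries were Mrpl42, Mrpl52, Mrpl33, Mrpl53, Mrpl15, Mrps34, Mrpl18 and Mrps6. These are counts at 3′ ends, not divided by length, so they do not rank the proteins. Mrpl42 had 56, 23, 28 and 20 counts in Control replicates 1, 2, 4 and 5 beside the 6510 of replicate 3, and 249 and 10 in Cre. Its log2 fold change was −3.52 ± 3.50 and turned to 1.85 without Control replicate 3. The region concerned lies on chromosome 10 from base 95480556 to 95480977 (minus strand), where 173 of 422 bases are exon. Over Control, Mrpl18 was the steadiest of these, at 133, 148, 168, 209 and 131 counts against 219 and 63 Cre counts. Its Control range was 78.9 to 121 CPM, and Cre replicate 2 lay below it at 43.5 CPM. Mrpl33 had 236, 114, 92, 232 and 185 Control counts against 162 and 336 Cre counts, nearly all from a region at 31622427 to 31622893 on chromosome 5, well before the annotated end of the gene. Mrpl52 had 216, 51, 336, 230 and 278 Control counts against 180 and 106 Cre counts. Mrpl53 had 133, 237, 129, 296 and 66 against 191 and 256, and overlaps a neighbouring gene. Mrps6 of the small subunit had 228, 250, 112, 217 and 41 against 162 and 25. For all of these except Mrpl15, Cre replicate 1 lay within the Control range in CPM. Cre replicate 2 lay outside that range for all except Mrpl52. It was above for Mrpl33, Mrpl53, Mrpl15 and Mrps34, and below for Mrpl42, Mrpl18 and Mrps6.

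Members varied widely between libraries of the same group. The median coefficient of variation over the 5 Control libraries was 81.0% for tested members and 75.7% for all tested genes. Among genes with a Control mean of 14.9 to 42.3 CPM, the middle range of members, it was 77.3% for 36 members and 85.4% for 3049 genes. The 2 Cre libraries differed by a median of 4.13-fold over the 43 members with counts in both. More than 4-fold apart were 53.5% of these members, beside 32.6% of all genes with counts in both. Pairs of Control libraries differed by medians of 2.12-fold to 2.88-fold over members. Over all genes, these medians were 2.34-fold for the Cre pair and 1.92-fold to 2.12-fold for Control pairs. Between Control libraries, 17.2% to 37.7% of members and at most 26.6% of all genes were more than 4-fold apart. The 10 Control pairs share libraries, and the Cre pair is a single value.

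The members were counted over 223 regions, of which 134 had a count, and 97.2% of counts fell in regions that hold 3′ UTR bases of some transcript. Some of these regions are coding exons in other transcripts, as in Mrpl15 and Mrps18c. Of the 54 members with several regions, the region nearest the 3′ end held 70.3% to 87.9% of counts in Control and 79.8% and 65.1% in Cre. Without Mrpl42, Control replicate 3 went from 87.9% to 62.4%, and the shares were 62.4% to 83.9% in Control and 83.1% and 65.0% in Cre, so that the groups overlapped. For all such protein-coding genes it held 75.5% to 80.7% in Control and 78.8% and 79.3% in Cre. In 4 members, a region overlapped one of a neighbouring gene on its strand, and these held 6.32% of member counts.

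Promoters of some members hold short motifs known from genes for mitochondrial proteins, though most members lacked each of them. RefSeq promoters (GRCm38.p6, 250 bases before to 50 after the start) matched 69 of 78 members by symbol. On either strand, the core CCGGAAG, bound by ETS factors such as GABP, stood in 26 of 69 (37.7%), beside 9.93% of all 27025 genes with a promoter. The core motif of NRF1 stood in 13 (18.8%, beside 5.19%), and AAGATGGC, the core bound by YY1, in 12 (17.4%, beside 3.19%). The 27025 genes are all those with a promoter and were not matched to the members for level or GC content. These letters are a description and not binding, and no difference between the groups is tied to them. As examples, members described above are shown for 30 bases in the direction of the gene, with the motif in capitals. They are Mrpl17 (chr7:105811117-105811146, minus strand) and Mrps21 (chr3:95871586-95871615, minus strand) for NRF1, and Mrpl51 (chr6:125192100-125192129, plus strand) and Mrps16 (chr14:20393545-20393574, minus strand) for the ETS core. In Mrps21 and Mrps16 the letters shown are the reverse complement of the motif, which lies on the opposite strand.
Mrpl17: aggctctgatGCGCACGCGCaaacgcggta
Mrps21: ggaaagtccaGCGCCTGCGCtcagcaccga
Mrpl51: aggggctaaaCCGGAAGtatttgactggac
Mrps16: tgggggcgctCTTCCGGgcttcaggctctg

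The 5 mitoribosome proteins whose symbols lie outside the Mrp names summed to 113 to 341 CPM (Control) against 215 and 681 (Cre), and edgeR called none after adjustment. Ptcd3 of the small subunit had 18, 15, 12, 19 and 17 Control counts against 3 and 0 Cre counts. Gadd45gip1 of the large subunit had 52, 38, 16, 64 and 26 Control counts against 0 and 2 Cre counts (log2 fold change −5.05 ± 2.25, edgeR adjusted p = 0.427, DESeq2 0.0422). Both Cre libraries were below every Control library for these genes. Chchd1 had 120, 270, 208, 352 and 58 Control counts against 347 and 451 Cre counts, and Aurkaip1 had 150, 28, 130, 115 and 12 Control counts against 64 and 523 Cre counts. Dap3, a GTP-binding protein also named for a role in cell death, had 115, 155, 0, 3 and 71 Control counts against 0 and 11 Cre counts.

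No gene of 4 further lists that serve the mitoribosome passed edgeR after adjustment. DESeq2 called 1 assembly gene and 2 transcription and RNA handling genes lower, beside 7.23% of all genes with an adjusted p. The authors' deposited table had the same numbers lower at an FDR under 0.05, beside 3.64% of all genes with an FDR. Neither called a gene of the other lists, or any gene of the 4 lists as higher. An unadjusted p under 0.05 was reached by 1.41% of all tested genes with higher and by 10.2% with lower values, and 13.7% were at 0 in both Cre libraries. The 16 translation factors summed to 157 to 348 CPM (Control) against 461 and 376 (Cre), and 0 of the 10 tested were at 0 in both Cre libraries. Of all 16, with those below the filter on low counts, 5 were at 0 in both. No share over all genes is given for such untested genes, here or in the lists below. Of 10 tested translation factors, 1 had an unadjusted p under 0.05 with a higher value and 0 with a lower one. The first was Mtfmt, which formylates the initiator tRNA, with 15, 20, 34, 14 and 125 Control counts against 129 and 273 Cre counts (log2 fold change 2.35 ± 1.07, edgeR adjusted p = 0.427). Letm1, a carrier of the inner membrane, had 57, 32, 152, 31 and 6 Control counts against 9 and 0 Cre counts. Tufm, the elongation factor that brings aminoacyl-tRNA, had 119 and 0 counts in Cre and 10, 0, 0, 31 and 0 in Control.

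Assembly and RNA modification genes summed to 496 to 829 CPM (Control) against 1015 and 655 (Cre), with 3 of 22 tested genes at 0 in both Cre libraries (9 of all 28). Of 22 tested assembly and RNA modification genes, 0 were higher and 2 lower (9.09%) at that p. Ddx28, a helicase of large subunit assembly, had 95, 126, 95, 94 and 2 counts in Control and none in Cre, at least 57.5-fold lower (edgeR adjusted p = 0.349, DESeq2 0.00126). Mrm1 and Trmt61b, both RNA methyltransferases, were at 0 in Cre and in 1 and 2 Control libraries. Transcription and RNA handling genes summed to 361 to 875 CPM (Control) against 345 and 648 (Cre), with 1 of 15 tested genes at 0 in both (6 of all 22, of which 1 was at 0 in every library). Of 15 tested transcription and RNA handling genes, 0 were higher and 2 lower. Slirp, which stabilises mitochondrial messenger RNA, had 134, 30, 182, 514 and 11 Control counts against 6 and 8 Cre counts (log2 fold change −4.58 ± 1.57, edgeR adjusted p = 0.391, DESeq2 0.0083). Grsf1, of the mitochondrial RNA granules, had 40, 134, 28, 20 and 73 Control counts against 1 and 0 Cre counts (authors' deposited FDR = 0.00509). Supv3l1, a helicase of RNA decay, was at 0 in Cre and in 2 Control libraries.

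Genes for charging mitochondrial tRNA summed to 267 to 542 CPM (Control) against 579 and 630 (Cre), with 4 of 17 tested genes at 0 in both (9 of all 22). Of 17 tested genes for charging mitochondrial tRNA, 1 was higher and 0 lower at that p. Iars2, the isoleucyl-tRNA synthetase, had 70, 31, 152, 21 and 62 Control counts against 202 and 444 Cre counts, above every Control library (log2 fold change 2.31 ± 0.82, edgeR adjusted p = 0.398). Aars2 and Wars2, which charge alanine and tryptophan tRNA, had no count in Cre and none in 1 Control library each.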

How the data were processed

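The authors deposited raw counts per 3′ region (whole numbers, per the file headers) for 7 libraries and a table of Cre against Control. That table gives p-values and FDR from DESeq2, per the file headers, with a deposited ratio (fold change), its log2 and the GC percent of each gene. FastQC 0.11.8, HISAT2 2.1.0, DESeq2 and mm10 are named in the submitters' processing notes. No source used here names the counting tool or its use of strand. RNA came from sorted cells and libraries were made as 3′ UTR RNA-seq, per the labels' protocols.

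Each gene's count is the sum of its regions. CPM are counts over the library total. The fit was edgeR 4.0.16 (R 4.3.3) quasi-likelihood with TMM, robust dispersions, group as the only term and filterByExpr (minimum count 10, minimum total 15), at an adjusted p of 0.05. DESeq2 1.42.0 and limma 3.58.1 were alternatives. Standard errors were taken from the F statistic. The procedure was tested on simulated data. Members and lists were chosen with earlier results of these data known. The limit for 0 counts is 3 counts and covers counting error only, as reads without molecular identifiers are not independent. Of 143 listed pathway and marker genes, 139 were found. GENCODE M21, whose gene positions matched all 78 members, placed regions against exons and UTRs.

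Values by library were given for the 8 members of smallest p in each direction, up to 10 at 0 in Cre with counts in all Control libraries, the 8 of highest mean CPM, a set fixed by role, up to 3 of smallest p per list and the 5 proteins outside the names. Mice are biological replicates per the series design, and p-values measure the spread between these libraries.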

Additional observations from a re-analysis of the deposited data

Results flagged for a closer look

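Of 59 sets of 5 Control values examined, 10 had 1 library whose gap to the nearest other exceeded the limit of Dixon's test. Chance gives about 1 in 20 only for separate sets of normally distributed values. The CPM here include zeros and vary widely, and the sums share genes, so no excess over chance is read from this count. Control replicate 3 stood high for Mrpl42 (4003 CPM, median of Control 16.2 CPM), for Mrps18c (376 CPM, median 37.0) and for Mrps7 (59.0 CPM, median 11.3), and low for Ptcd3 (7.38 CPM, median 10.4). Through Mrpl42 it also stood high in the sums of all members (6813 CPM), of the large subunit (5653 CPM) and of members specific to mitochondria (5017 CPM). Control replicate 4 stood high for Mrps22 (45.2 CPM, median 0), Control replicate 1 for Mrps30 (64.1 CPM, median 20.9) and Control replicate 5 for Mtfmt (76.8 CPM, median 13.5).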

How the results depend on the processing

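The count of members past the adjusted threshold was 0 in each direction, and it moved to 1 higher and 7 lower with DESeq2, to 1 and 1 without a filter on low counts, and to 0 to 1 in each direction with 1 library left out. Over all tested genes, the counts of 0 higher and 1 lower moved to 35 and 607 with DESeq2, 3 and 0 with limma voom, 15 and 28 without a filter, 5 lower with the replicate block, and 0 to 17 higher and 1 to 202 lower with 1 library left out, the extremes without Cre replicate 1. At an unadjusted p under 0.05, the 1 higher member became 2 with DESeq2 size factors, DESeq2 or voom, 3 without a filter, 0 with the region of most counts only or with the replicate block, and 0 to 4 with 1 library left out. The 10 lower became 17 with DESeq2, 1 with the block, 5 with the stricter filter (10 counts in 5 libraries), and 5 to 11 with 1 library left out, 5 without Control replicate 1. The median log2 fold change of members (−0.35) was −0.56 with voom, −0.84 with the block, 0.014 with the stricter filter, and −2.34 to −0.19 with 1 library left out. The lowest values came without either Cre library, where the median of all genes also moved, to −2.40 and −1.22.

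With Mrpl42 included, the log2 ratios of the summed levels moved by less than 1 SD of Control, which Mrpl42 widens for all members and the large subunit. Without Mrpl42, leaving out Cre replicate 1 moved the Cre sum of members from 2706 to 3482 CPM against a Control SD of 275 CPM, and that of the large subunit from 1874 to 2432 CPM against 203 CPM. Bacterial homologues moved from 1776 to 2265 CPM against 226 CPM. The sign of the log2 ratio for all members turned without Control replicate 3 or Cre replicate 1, and without Mrpl42, an alternative chosen after seeing the data. The replicate numbers of Control and Cre pair no mice, and deviations of same-numbered libraries correlated at 0.003 and 0.002. Changes of sign are listed only for the genes chosen by rule for values by library. Other members turned too, with voom among them Mrpl10 (0.73 to −0.068), Mrpl14 (0.89 to −0.54), Mrpl22 (1.56 to −0.054) and Mrpl23 (−0.30 to 0.31). With the replicate block, the fitted value turned sign for Mrpl42 (0.48), Mrpl44 (−0.79), Mrpl52 (0.27), Mrpl58 (−0.87), Mrps18a (−0.12), Mrps5 (−0.90) and Mrps7 (1.5). With voom it turned for Mrpl44 (−0.57), Mrps18b (0.052), Mrps18c (0.60) and Mrps7 (0.28), with the region of most counts only for Mrpl52 (0.17) and Mrpl58 (−0.23), without overlapping regions for Mrps34 (−1.22), and without a filter for Mrps36 (0.0091). With 1 library left out, values spanned 0 for Aurkaip1 (−0.64 to 2.77), Mrpl13 (−0.28 to 3.11), Mrpl18 (−1.14 to 0.28), Mrpl33 (−0.27 to 1.15), Mrpl42 (−6.83 to 1.85), Mrpl44 (−7.51 to 1.77), Mrpl53 (−0.053 to 0.74), Mrpl58 (−1.77 to 1.70), Mrps18b (−0.55 to 0.21), Mrps18c (−4.38 to 1.69), Mrps23 (−1.46 to 2.39), Mrps28 (−5.99 to 0.13), Mrps36 (−5.60 to 0.89), Mrps5 (−3.42 to 1.83), Mrps7 (−4.47 to 0.76) and Tufm (−6.00 to 3.68). No cause of these changes was tested. With a Cre library left out, the lone Cre library is assumed to vary like Control. DESeq2 size factors put the median of all tested genes at −0.29 and upper-quartile factors at −0.49, against −0.39.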

Other observations

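Processed pseudogenes that carry member names were counted apart from the members. Mrpl23-ps1 had 35, 18, 55, 2 and 66 Control counts against 53 and 47 Cre counts, while its parent Mrpl23 had 27, 5, 72, 1 and 4 against 37 and 3. How the authors' counting shared reads between such near-identical copies is not given in the sources used here, so both are uncertain. Mrps36-ps1 had 43 counts in Control replicate 5 and at most 7 elsewhere.

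Near-equal counts in separate regions of 1 gene recurred within single libraries. Of 21 cases where a member had at least 20 counts in 2 or more regions of a library, the highest pair lay within 1.1-fold in 3, which were Mrpl15 in Cre replicate 2, Mrpl42 in Cre replicate 1 (126 and 123 counts) and Mrps18c in Control replicate 3.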
